A study of Mus musculus with 2 samples.

Results

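Splicing factor and hnRNP genes were examined in CD1 mouse embryonic fibroblasts, the primary cells used as feeders for human embryonic stem cells. By symbol, 99 mouse genes belong to the set. The SR class takes symbols starting with Srsf, and 10 genes that carry an older Sfrs name, not all of them SR proteins. The snRNP class takes Snrp and Lsm symbols. The other classes are the U2 factor and Prpf proteins (Sf3a, Sf3b, U2af and Prpf) and hnRNPs (Hnrnp). Of the 99 genes, 54 had a probe whose ID held their NCBI gene number. Of the 54, 41 were detected, all of them on both arrays. The other 13 with a probe were not detected, and 45 genes, 5 of them pseudogenes, had no named probe and were not analysed here. Of all 7413 named genes with a probe, 3220 were detected on at least 1 array. Of all 8379 genes detected, counting each unnamed probe as a gene, 7352 were detected on both arrays. Every gene name rests on reading numbers in the probe IDs as gene IDs, a reading that no file header gives.

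Mitomycin C, which crosslinks DNA, had stopped the cells of both groups from dividing before they were replated on gelatine at 55000 cells per square centimetre. For 24 h the control then received basic medium for human embryonic stem cells, which contains serum replacement, and the FGF2 group received the same medium with 40 ng/ml of FGF2. Total RNA of each group was hybridised to a single Illumina bead array. With 1 array per group no difference has a replicate check and no p-value was computed. The labels name no clone, donor or passage. Of 24044 probes, the control array detected 8210 and the FGF2 array 8129. Of 14 fibroblast markers, 7 had a named probe and all 7 were detected, among them Col1a1, Col3a1, Dcn and S100a4. The summed signal of the 7 was 32168 without and 20489.7 with FGF2. Of the 7, 5 had a lower signal with FGF2, among them Col1a1 (9119 without and 2697 with). Dcn (4528 and 6061) and S100a4 (1527 and 2562) were higher. Among 22 markers of epithelial, endothelial, blood or pluripotent cells, 14 had a named probe and 5 were detected. On the FGF2 array the highest signal among these 5 was that of Krt18, at 205 without and 385 with FGF2. On the control array it was that of the endothelial marker Emcn, at 268 without and 302 with FGF2. The part of these genes in the results was not tested. In RNA of whole cultures, a change in the number of cells of a type and a change in RNA per cell cannot be told apart.

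The spliceosome removes introns from pre-mRNA. Its building blocks are small nuclear ribonucleoproteins, or snRNPs, in which a short RNA is held in a ring of Sm proteins (LSm proteins in the case of U6) and carries further proteins of its own. SR proteins, named for their arginine and serine dipeptides, bind exons and mostly favour the use of nearby splice sites, whereas hnRNPs coat nascent RNA and often act against them. Fibroblasts in culture need this machinery for nearly every messenger RNA, and growth factors are known to act on it in part through phosphorylation of SR proteins, which a transcript array does not measure.

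Most transcripts of the splicing machinery had a slightly higher signal on the FGF2 array. The ratio of FGF2 over control was above 1 in 38 of 41 detected genes, beside 52.3% of all 8379 genes detected. That total counts each unnamed probe as a gene and includes genes detected on 1 array only. Among the 3220 named genes detected, the ratio was above 1 in 54.9%. At a log2 ratio of at least 0.32, the lower of the limits used here, 14 members were higher and none was lower. Of all genes 13.3% were higher and 13.4% lower, and of named genes 14.5% and 12.9%. Only the hnRNP gene Hnrnpu passed 1.5-fold (4.34% of all genes were that much higher) and no member was 1.5-fold lower (5.57% of all genes were). The median log2 ratio of the members was 0.22, from -0.25 in Sugp2 to 0.59 in Hnrnpu, and that of all genes was 0.01. By class the median was 0.34 over 13 snRNP-class genes and 0.25 over 7 U2 factor and Prpf genes. It was 0.19 over 12 hnRNPs and 0.14 over 9 SR-class genes, and the ranges of the 4 classes overlapped. Within the SR class the median was 0.26 over 5 genes with an Srsf symbol and 0.12 over 4 with only an older Sfrs name. The order of the classes below the snRNP class depended on the settings, as given below. In the authors' processed values, from which background had been subtracted, the median of the members was 0.34 and 9 of the 41 were at least 1.5-fold higher, where 11.2% of all genes were, and none was 1.5-fold lower, where 11.3% were. At a log2 ratio of 0.32, 23 members were higher in those values, where 25.0% of all genes were, and none was lower, where 21.4% were.

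Most of these differences exceeded the bead error but stayed within 2 SDs of the scatter between probes of the same gene. The bead error of a member's log2 ratio, from the spread of beads that the files give, had a median of 0.072. Probes of the same gene scattered more: over 305 pairs of probes in 247 genes, a single log2 ratio had an SD of 0.18. Of the 41 members, 11 had log2 ratios over 0.37, which is 2 such SDs, and none was as far below 0, while 22.4% of all genes were that far from 0 in either direction. Neither error includes the difference between cultures of the same kind.

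**Figure D1:**
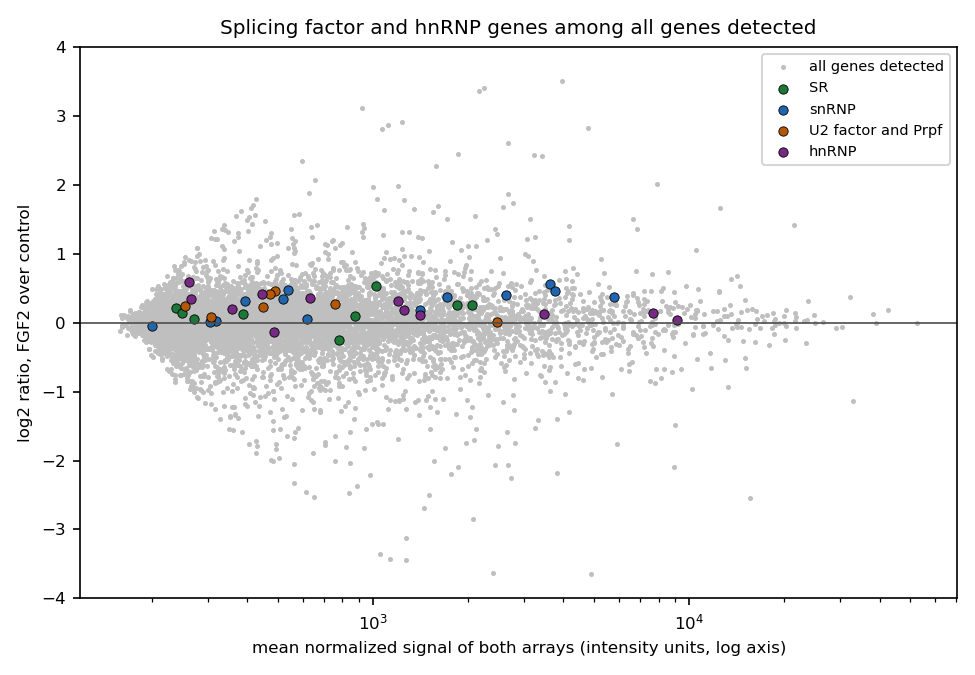
Log2 ratio of FGF2 over control (vertical axis) against the mean normalized signal of both arrays (horizontal log axis, intensity units) for all 8379 genes detected (grey) and the 41 splicing factor and hnRNP genes (coloured by class). The members lie in a narrow band between -0.25 and 0.59, mostly above 0, at all levels of signal.

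Ratios above 1 prevailed at each level of signal. Among 7 members with a mean signal under 300 the median log2 ratio was 0.22, where the other genes of that range had 0.01. Among 18 members between 300 and 1000 it was 0.21, against 0.02. Between 1000 and 3000 it was 0.26 over 10 members, against 0.01, and above 3000 it was 0.25 over 6 members, against 0.00.

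The start-site regions of the member with the highest ratio in each class, and of Snrpn, the Sm gene with the ratio nearest to 0, are shown for context. They are RefSeq sequences of GRCm38.p6 from 250 bases before to 50 bases after the start listed first. Srsf5 lies at chr12:80945249-80945548, plus strand, Snrpd3 at chr10:75517792-75518091, plus strand, U2af1 at chr17:31658715-31659014, minus strand, Hnrnpu at chr1:178337766-178338065, minus strand and Snrpn at chr7:60450128-60450427, minus strand. Capitals mark the letters CCGGAAG, a motif bound by ETS factors, and CCAAT, on either strand.
Srsf5: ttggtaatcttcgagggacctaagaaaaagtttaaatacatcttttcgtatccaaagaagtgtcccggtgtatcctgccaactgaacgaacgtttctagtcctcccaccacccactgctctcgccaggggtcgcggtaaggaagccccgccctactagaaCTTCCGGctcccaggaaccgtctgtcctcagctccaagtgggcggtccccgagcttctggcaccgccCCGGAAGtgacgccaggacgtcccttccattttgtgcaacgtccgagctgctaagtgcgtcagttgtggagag
Snrpd3: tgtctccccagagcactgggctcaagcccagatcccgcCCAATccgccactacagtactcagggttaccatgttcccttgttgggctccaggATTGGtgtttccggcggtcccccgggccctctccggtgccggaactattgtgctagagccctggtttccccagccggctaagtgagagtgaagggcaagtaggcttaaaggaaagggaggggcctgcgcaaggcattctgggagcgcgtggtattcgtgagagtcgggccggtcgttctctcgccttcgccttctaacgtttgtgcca
U2af1: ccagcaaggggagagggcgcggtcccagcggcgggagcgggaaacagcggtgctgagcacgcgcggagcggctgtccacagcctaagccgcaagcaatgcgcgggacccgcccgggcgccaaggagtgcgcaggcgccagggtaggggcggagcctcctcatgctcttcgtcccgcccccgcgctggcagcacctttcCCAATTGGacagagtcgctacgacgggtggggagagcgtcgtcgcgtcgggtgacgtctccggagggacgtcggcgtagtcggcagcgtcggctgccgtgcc
Hnrnpu: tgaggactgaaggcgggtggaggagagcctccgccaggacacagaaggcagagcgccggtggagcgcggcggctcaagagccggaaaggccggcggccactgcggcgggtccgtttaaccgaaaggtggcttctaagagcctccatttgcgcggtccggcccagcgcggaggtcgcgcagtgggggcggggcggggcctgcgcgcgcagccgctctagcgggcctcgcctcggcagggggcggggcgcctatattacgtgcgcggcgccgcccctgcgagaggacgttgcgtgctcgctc
Snrpn: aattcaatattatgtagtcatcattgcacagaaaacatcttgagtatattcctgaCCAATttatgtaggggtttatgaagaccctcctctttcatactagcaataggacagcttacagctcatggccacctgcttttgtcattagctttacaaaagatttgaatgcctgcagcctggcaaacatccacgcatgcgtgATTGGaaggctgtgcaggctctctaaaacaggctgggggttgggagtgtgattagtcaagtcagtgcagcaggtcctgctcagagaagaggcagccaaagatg
Srsf5 holds the ETS letters at 2 places, Snrpd3, U2af1 and Snrpn hold CCAAT at 2 places each (overlapping in U2af1), and the Hnrnpu window holds neither. Only the start listed first was used for each gene, so any other starts, including those of Snrpn, were not examined. At that start the Snrpn window has 2 CG dinucleotides, against 18 in Snrpd3. The median was 26 over the 35 detected members with a listed promoter, against 22 over named detected genes and 7 over all genes with a promoter. Of these 35, 20 hold CCAAT (57.1%, against 39.0% of 2615 named detected genes and 37.9% of all 27025 genes with a promoter). It was in 8 of 11 hnRNPs and 6 of 11 snRNP-class genes. In the SR class it was in 5 of 9, and in the U2 factor and Prpf class in 1 of 4. CCGGAAG is in 4 of the 35 (11.4%, against 20.3% of named detected genes and 9.12% of all). TATAAA is in 17.1% of members, 7.34% of named detected genes and 14.2% of all. The E-box CACGTG is in 14.3%, 10.1% and 7.24%, and the cyclic AMP response element TGACGTCA in 5.71%, 3.63% and 1.88%. Both strands were searched throughout, and a match of letters describes the window and is not a bound site.

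**Figure D2:**
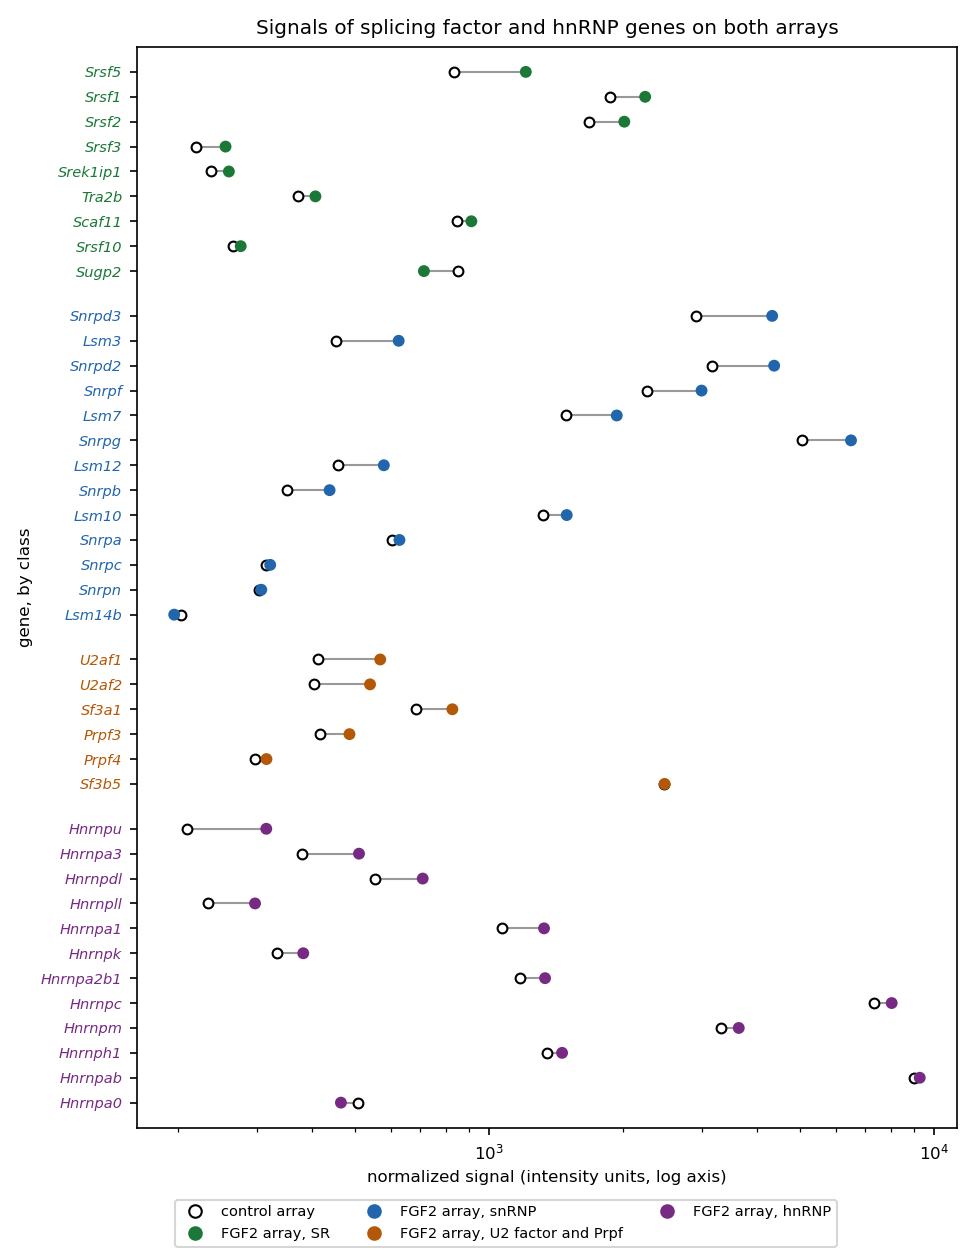
Normalized signal of the detected members named in the text on the control array (open points) and the FGF2 array (filled points, coloured by class), on a log axis in intensity units, with 1 array per group. The filled point lies to the right of the open one for all genes shown but Sugp2, Lsm14b and Hnrnpa0.

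Among snRNP proteins, the Sm proteins that form the common ring of the U1, U2, U4 and U5 particles were higher with FGF2. Snrpd3 (SmD3) had a normalized signal of 2921 without and 4321 with FGF2, a log2 ratio of 0.56 with a bead error of 0.059, or 1.48-fold. Snrpd2 (SmD2) had signals of 3166 and 4365 and was 1.38-fold higher, with a bead error of 0.064 on the log2 scale. Snrpf (SmF) followed with 2259 and 2998, or 1.33-fold. These ring members differed by similar amounts. Snrpg (SmG) had 5038 and 6497, or 1.29-fold. Snrpb, which codes for SmB, had 350.2 and 438, a log2 ratio of 0.3213 that fell just short of the lower limit of 0.3219. Its second probe gave 342 and 440.3, or 0.36. Snrpn codes for SmN, a close relative of SmB that is imprinted and used mainly in neurons, and it was the exception. Its signals were 304 and 307, with a log2 ratio of 0.02 that turned below 0 with the signals as deposited and with median scaling. The median over these 6 detected Sm genes was 0.39 on the log2 scale. Snrpe (SmE) had a probe that was not detected (detection scores of 0.96 and 0.94), and Snrpd1 had no named probe. This grouping by ring was made after the values were seen.

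The LSm proteins of the ring that holds U6 RNA showed a similar size of difference in the 2 members detected. Lsm3 had a signal of 452 without and 626 with FGF2, a log2 ratio of 0.47 with a bead error of 0.079. Lsm7 had 1491 and 1933, or 0.38 with a bead error of 0.075. Lsm5, of the same ring, was not detected. Lsm10, a subunit of the U7 particle that processes histone messages, had 1318 and 1492, a log2 ratio of 0.18. Lsm14b, of a family known for translational repression, had 203 and 196, or -0.05. Lsm12 had 457 and 579, or 0.34, on its brightest probe. Its other 2 probes stood at 0.01 and 0.00, so the gene's mean over probes was 0.12 and its place among the higher members rests on 1 probe.

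The 2 detected genes of proteins specific to the U1 particle had ratios near 1, as did the ring gene Snrpn. Snrpa, the A protein of U1, which binds a stem-loop of U1 RNA, had signals of 605 and 628, a log2 ratio of 0.05. Its other 2 probes gave -0.12 and 0.12. Snrpc, the C protein, which helps U1 to recognise the upstream splice site, had 316 and 322, or 0.03, which turned below 0 with the signals as deposited. Snrpb2, the U2 counterpart of Snrpa, was not detected. These values are within the SD of 0.18 found between probes of a gene, and the 5 Sm genes other than Snrpn lie between 0.32 and 0.56. The difference between the groups was not tested.

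**Figure D3:**
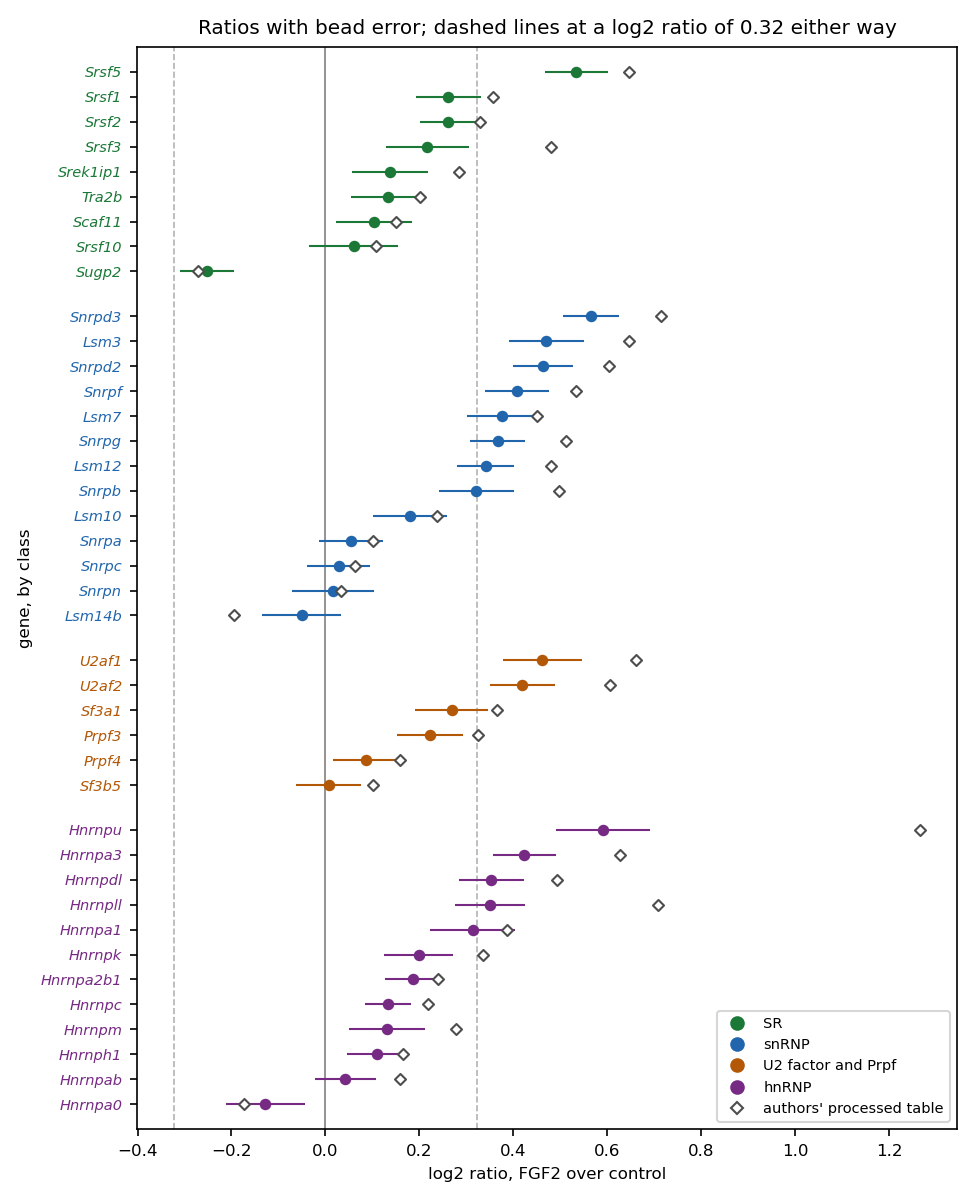
Log2 ratio of FGF2 over control for the detected members named in the text, grouped by class and ordered within it, with the bead error as bars. Open diamonds give the ratio in the authors' processed table and dashed lines mark a log2 ratio of 0.32 in either direction. The Sm genes Snrpd3, Snrpd2, Snrpf and Snrpg lie past the upper dashed line, while Snrpa, Snrpc and Snrpn lie near 0.

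Among U2 factor and Prpf proteins, the 2 subunits of U2AF, which together recognise the downstream end of an intron, were the highest. U2af1, which binds the AG at the splice site, had 413 without and 569 with FGF2, or 1.38-fold (log2 0.46, bead error 0.084). U2af2, which binds the pyrimidine tract before it, had 403 and 539, or 1.34-fold (log2 0.42, bead error 0.069). A second U2af2 probe, detected with FGF2 only, lay at the detection limit and gave a bound of 0.02, so the mean over its detected probes was 0.22. In the authors' processed values U2af1 stood at 0.66 and U2af2 at 0.61.

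The members of the class described next differed less. Sf3a1, a subunit of the U2 particle, had 685 and 826, a log2 ratio of 0.27. Sf3b5, a small subunit of the complex that grips the branch site, had 2464 and 2477, or 0.01. Prpf3 (415 and 485, log2 0.22) and Prpf4 (297 and 316, log2 0.09) belong to the U4/U6 particle. Probes of Prpf31, Prpf38a, Prpf40b and Prpf4b were not detected.

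The SR proteins were led by Srsf5 (SRp40). It had a signal of 834 without and 1208 with FGF2, a log2 ratio of 0.53 with a bead error of 0.067, or 1.45-fold, and it was the only SR gene past 0.32. Srsf1 (SF2/ASF), the founding member of the family, had 1868 and 2239, or 1.20-fold. Srsf2 (SC35), a marker protein of nuclear speckles, had 1679 and 2010.4, likewise 1.20-fold. Srsf3 (SRp20), the smallest classical SR protein, had 219.7 and 255, or 0.22, and 0.48 in the authors' processed values. Its control signal was near the lowest detected one, 192. Srsf10, a splicing repressor when dephosphorylated, had 265 and 276, or 0.06, which turned below 0 with the signals as deposited. The median over these 5 Srsf genes was 0.26.

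Genes that belong to the set only through an older Sfrs name were flatter, with a median of 0.12 over 4 genes. Tra2b (Sfrs10), an activator that binds purine-rich exon elements, had 371 and 407, or 0.13. Srek1ip1, which codes for a partner of a splicing regulator, had 236 and 259.9, or 0.14. Sugp2 (Sfrs14) had 849 without and 713 with FGF2, or 1.19-fold lower (log2 -0.25, bead error 0.057), the lowest ratio of the 41. Scaf11, which codes for a protein that interacts with Srsf2, had 848 and 911, or 0.10, on its brightest probe, and 323 and 252, or -0.36, on the other. Its probes thus differed in sign, and by 0.46 they were the farthest apart of the 10 pairs among members. Sfswap was not detected.

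**Figure D4:**
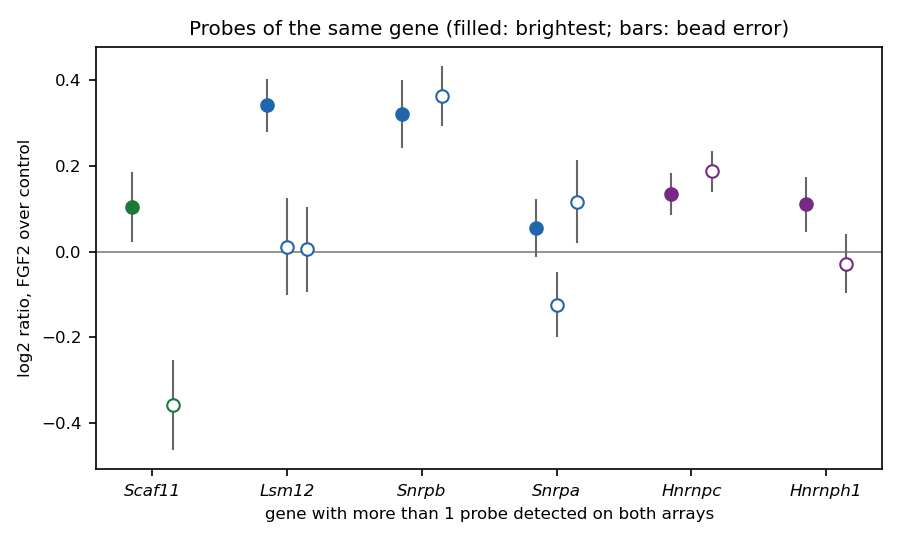
Log2 ratio of FGF2 over control for each probe of the 6 members with more than 1 probe detected on both arrays; filled points are the brightest probe, which stands for the gene, and bars are bead errors. The probes of Snrpb and Hnrnpc differ by 0.042 and 0.053, while those of Scaf11 lie on either side of 0.

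Of the hnRNPs, 11 of 12 had a ratio above 1, beside 52.3% of all genes, and 4 were higher by at least 0.32 on the log2 scale, beside 13.3% of all genes. Hnrnpu, a scaffold protein of the nuclear matrix, had 209 without and 315 with FGF2, a log2 ratio of 0.59 with a bead error of 0.099, or 1.51-fold. The control signal is close to the lowest detected signal of that array, 192, and in the authors' processed values the gene was 2.40-fold higher (log2 1.26). Hnrnpa3, of the A/B family that binds UAG-type elements, had 380 and 509, or 1.34-fold, and Hnrnpdl, a relative of the AU-rich element binder Hnrnpd, had 554.5 and 708, or 1.28-fold. Hnrnpll, known for regulating CD45 splicing in lymphocytes, had 233 and 298, or 1.28-fold, and 0.71 on the log2 scale in the authors' processed values. These 4 genes had control signals between 209 and 554.5.

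The A/B proteins that are best known as splicing repressors showed smaller differences. Hnrnpa1 had 1068 and 1327, a log2 ratio of 0.31 with a bead error of 0.090, and Hnrnpa2b1 had 1173 and 1334, or 0.19. Hnrnpa0, of the same family, had 507 and 464, or -0.13, and was the only hnRNP with a ratio below 1 on the probe that stands for the gene. Members of this family and their pseudogenes are similar in sequence, so these signals are uncertain as to source.

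The remaining hnRNPs had log2 ratios of at most 0.20. Hnrnpc, which binds uridine tracts, had 7308 and 8018, or 0.13, and its second probe gave 0.19. Hnrnpab had 9003 and 9270.5, or 0.04. Hnrnpm had 3319.6 and 3634.5, or 0.13. Hnrnph1, which binds runs of G, had 1349.9 and 1457, or 0.11, and its second probe gave -0.03. Hnrnpk, which binds C-rich tracts, had 333 and 382, or 0.20. Probes of Hnrnpd, Hnrnpf, Hnrnph2, Hnrnpr and Hnrnpul1 were not detected.

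Set side by side at a log2 ratio of at least 0.32, 7 of 13 snRNP-class genes and 4 of 12 hnRNPs were higher. So were 2 of 7 U2 factor and Prpf genes and 1 of 9 SR-class genes, beside 13.3% of all genes. In the authors' processed values the counts at that limit were 8 of 13, 6 of 12, 5 of 7 and 4 of 9 in the same order. There 25.0% of all genes were higher, and the share was highest in the U2 factor and Prpf class. With the mean over probes of a gene, Lsm12 (0.12) and U2af2 (0.22) fell below 0.32 and Snrpb (0.34) passed it. Lsm12 and Lsm14b are in the snRNP class by symbol only. The snRNP class had the highest of the 4 medians under each of 10 alternative settings, and all class medians stayed above 0. Detection on both arrays could change no class median, since every member was detected on both. Leaving out genes with an older Sfrs name could change only the SR median. The hnRNP median was above the SR median under 7 of the 10. It was below it when genes with an older Sfrs name were left out (0.19 against 0.26) and when only genes at or above the median signal, or only those of at least 1000, were kept (0.13 against 0.26 in either case). The U2 factor and Prpf median was above the hnRNP median under 7 of the 10 as well. It was below the hnRNP median with the signals as deposited (0.15 against 0.16) and with median scaling (0.21 against 0.22). At a mean signal of at least 1000 it was 0.0074 (1 gene), against 0.13. These counts describe 1 pair of arrays, and no difference between classes was tested.

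Other genes of RNA splicing, which the symbol rule does not take, were compared as a list of 93. Of these, 50 had a named probe and 34 were detected. The ratio was above 1 in 26 of the 34 (76.5%, beside 52.3% of all genes), and the median log2 ratio was 0.15. By at least 0.32, 4 were higher (11.8%, a share below the 13.3% of all genes) and 1 was lower (2.94%, beside 13.4%), and none passed 1.5-fold. The highest was Ncl (nucleolin), a nucleolar RNA-binding protein, with 277 without and 385 with FGF2 (log2 0.48). Dhx15, the helicase that takes spliceosomes apart, had 1172 and 1578 (0.43). Prmt5, the arginine methyltransferase that modifies Sm proteins before ring assembly, had 473.5 and 611 (0.37). Rbm17, a U2-associated factor, had 1195 and 1522 (0.35). In the other direction Celf2, a regulator of tissue-specific splicing, had 551 and 408 (-0.43). Rbm39 (-0.19) and the cold-inducible RNA-binding protein gene Cirbp (-0.17) stood closer to 0. Cirbp was dim, with 249 and 221. In the authors' processed values Celf2 stood at -0.59, Rbm39 at -0.20 and Cirbp at -0.44.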

How the data were processed

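Per the labels' protocols, 300 ng of total RNA was amplified linearly (in vitro transcription for 6 h) with Cy3 as the label, and the submitters' processing notes name BeadStudio 1.0. The deposited array files hold for each of 24044 probes, per the file headers, the mean signal intensity, the standard deviation of its beads and a detection score, a fraction from 0 to 1. The number of beads is not given, so the bead error was taken as it stands. The authors' processed intensities equal the signal minus 139 (control), or the signal minus 132, times 1.05 (FGF2), given where the score was at least 0.99. Of 9523 probe IDs with a number of 5 or more digits after 1 or 2 zeros, 8884 (93.3%) matched a gene ID of the RefSeq table (GRCm38.p6), whereas 48.6% of those numbers plus 1 are gene IDs.

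Signals were quantile normalized between the arrays, set to the lowest detected signal (191.7 and 193) where lower, and compared as log2 ratios of FGF2 over control. The brightest probe with a score of at least 0.99 on at least 1 array stood for a gene, and each unnamed probe counted as a gene. Bead error is the combined relative bead spread of both arrays on the log2 scale. The steps were tested on simulated data with 2-fold changes planted in brighter probes. The simulated noise was smaller than the scatter found between probes of a gene, and recovery values are not reported here. Recovery of smaller ratios, or of changes in dim probes, was not tested. The rule was to name every detected member and, of the other splicing genes, the 4 highest and 4 lowest; some genes that it takes are not reported here. The members and lists were chosen with earlier results of these data known. Protein sequences were not used here. Alternatives covered scaling, background, floor, detection, probe choice, brightness, fold and membership. Python 3.11.15, numpy 2.4.6 and pandas 2.3.3 were used.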

Additional observations from a re-analysis of the deposited data

How the results depend on the processing

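Class medians were recomputed under 10 alternatives, of which the restriction to mean signals of at least 1000 was added after the data were seen. Counts past 1.5-fold were recomputed under 7 of the 10, not under the 3 that restrict membership or brightness. All class medians kept their sign, though detection on both arrays could change none of them. With the signals as deposited, where the median of all genes was -0.06, the SR median was 0.054 and the U2 factor and Prpf median 0.15. In the authors' processed values the SR median was 0.28, the hnRNP median 0.31 and that of all members 0.34. The SR median was 0.26 without genes of an older Sfrs name, 0.26 among genes at or above the median signal, and 0.26 at a mean signal of at least 1000, where the U2 factor and Prpf class was 1 gene at 0.0074. The count of members at least 1.5-fold higher, 1 in the values as reported, was 0 with 50 added to signals in place of the floor and 9 in the authors' processed values. It was 14 at a log2 ratio of 0.32 and 0 at 2-fold, and in the authors' processed values at 0.32, added after the data were seen, it was 23. No member was 1.5-fold lower under any of these 7. Of 41 members, 7 moved by over the probe SD of 0.18 in the authors' processed values, all upward, and 3 with the mean over probes. Signs changed in 3 members with the signals as deposited, in 1 with median scaling and in 1 (Scaf11) with the mean over probes. No paired analysis was possible because each group has 1 array. Background is part of the signal and shrinks ratios of dim probes, so the sizes of differences in dim genes such as Srsf3, Hnrnpu and Lsm14b are the least certain.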
